A study of Saccharomyces cerevisiae with 4 samples.

Results

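The p24 proteins and the Erv cargo receptors are membrane proteins of the vesicles that carry newly made proteins from the endoplasmic reticulum (ER) to the Golgi. Of 5656 yeast genes with a probe set of their own, 10 were chosen by name for this description: the p24 family genes EMP24, ERV25, ERP1, ERP2, ERP3 and ERP4, and the receptor genes ERV14, ERV29, ERV41 and ERV46. Each is read by 1 probe set that names no other gene. The rule names genes and sets no limit on a measured value, but it was written with earlier results of these data known. RNA came from Saccharomyces cerevisiae BY4741, a MATa laboratory strain whose labels list the alleles his3Δ1, leu2Δ0, met5Δ0 and ura3Δ0 in every group. The 4 groups, with 1 Affymetrix array each, were sub-polysomal RNA of cells given 2 mM dithiothreitol (DTT) for 1 h, sub-polysomal RNA of cells given water for the same time, polysomal RNA of DTT-treated cells and polysomal RNA of control cells. DTT keeps proteins in the ER from forming disulphide bonds and so sets off the unfolded protein response. Cycloheximide, at 0.1 mg/mL, held ribosomes on their transcripts before lysates were parted by ribosome load on a sucrose gradient, in buffers that held 0.5 mM DTT for both treatments. Each array carried RNA pooled from 3 extracts, so no group has a replicate and no difference could be tested. In whole cultures, a difference in a few cells and a smaller one in every cell cannot be told apart.

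As background, proteins leave the ER in vesicles coated with COPII, and escaped ER proteins return in vesicles coated with COPI. Emp24, Erv25, Erp1 and Erp2 form a p24 complex that cycles between both organelles and helps to load proteins with a glycosylphosphatidylinositol (GPI) anchor, such as the cell wall enzyme Gas1. Erp3 to Erp6 are further p24 proteins. Erv29 loads soluble proteins such as carboxypeptidase Y, Erv14 (the yeast cornichon) loads membrane proteins such as Axl2, and Erv41 and Erv46 form a complex that returns ER residents such as glucosidase I and Fpr2. The question for these genes is whether their transcripts were more or less abundant with DTT, and whether they moved onto or off polysomes.

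Values are intensities as the authors scaled them, and log2 differences of intensities centred on each array's median probe set. A probe set counted as measured when it exceeded the 40th percentile of every array, here called the floor, which stood at 22.6, 28.2, 15.9 and 17.6 for DTT sub-polysomal, control sub-polysomal, DTT polysomal and control polysomal RNA. This held for 3923 genes and for 9 of the 10 receptor genes. The error given here is the pooled SD among probe sets that read one gene, taken over 161 genes. For DTT minus control it was 0.45 (log2) in the sub-polysomal and 0.41 in the polysomal fraction. For polysomal minus sub-polysomal RNA it was 0.32 with DTT and 0.41 in control cells, and for the change between these ratios 0.43. This probe set SD does not cover differences between cultures or arrays. The control sub-polysomal array stood apart, with rank correlations of 0.885 to 0.920 with the others against 0.922 to 0.959 among those. The 3' to 5' signal ratio of ACT1 was 1.91 and 2.49 in sub-polysomal RNA of DTT-treated and control cells and 1.48 and 1.52 in polysomal RNA. For SPT15 this ratio was 4.83 and 4.41 in sub-polysomal RNA of DTT-treated and control cells and 3.12 and 3.11 in polysomal RNA. The part of these differences in the results was not tested. The a-type pheromone receptor gene STE2 was above the floor on every array and the alpha-type gene STE3 on none. The MET5 probe set read 166, 184.5, 149.5 and 96.7 in the order above, although the labels list that gene as deleted, while MET17 was at 7.1 or less.

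ERV29 was the receptor gene that differed most between DTT-treated and control cells. It read 139 in DTT-treated and 36.1 in control sub-polysomal RNA, and 288 in DTT-treated and 101 in control polysomal RNA, so both DTT readings lie above both control readings. Its log2 difference was 1.84 in the sub-polysomal fraction, or 3.59-fold, and 1.48 in the polysomal fraction, or 2.80-fold, at places 51 and 76 from the top among 3923 genes. Of the 9 measured genes it was the only one at least 2-fold higher, in each fraction and in both. Of all measured genes, 5.68% were that much higher in the sub-polysomal fraction, 4.33% in the polysomal fraction and 2.83% in both. The control sub-polysomal reading was 1.28 times the floor of that array and under its median of 40.5. The polysomal difference does not use that array, and ERV29 was 5.72 times the floor or more on both polysomal arrays.

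**Figure D1:**
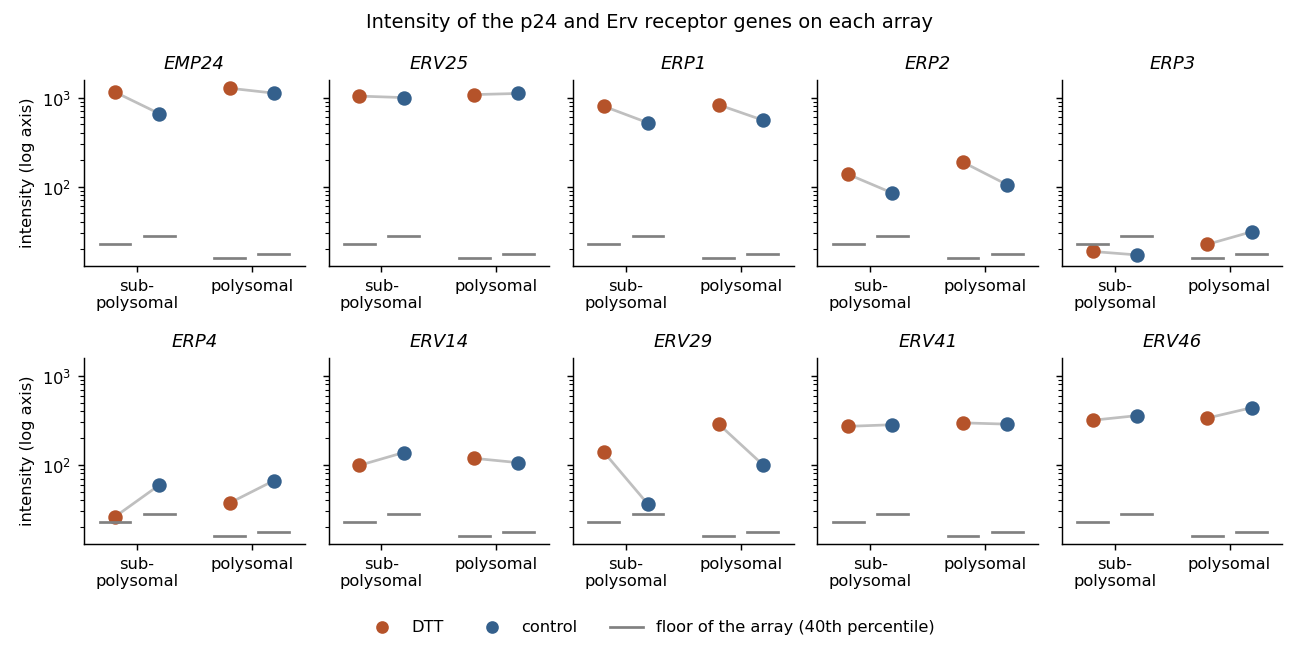
Deposited intensity (log axis) of each of the 10 genes on the 4 arrays, DTT (orange) left of control (blue) in each fraction, with the floor of the array as a grey bar. ERV29 was higher with DTT in both fractions, ERP4 was lower in both, and ERP3 lay under the floor on the sub-polysomal arrays.

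In the main p24 complex, 3 of 4 genes (EMP24, ERP1 and ERP2) were higher with DTT in both fractions, under every processing alternative as well, while ERV25 was close to 0. Of all measured genes, 28.7% were above 0 in both fractions. EMP24 read 1154 in DTT-treated and 663 in control sub-polysomal RNA, and 1275 in DTT-treated and 1123 in control polysomal RNA. Its log2 difference was 0.70 in sub-polysomal RNA, larger than the probe set SD, and 0.15 in polysomal RNA, smaller than it. ERP1 read 799 with DTT and 521 in control sub-polysomal RNA, and 830.5 with DTT and 559 in control polysomal RNA. The differences of ERP1 were nearly equal, at 0.52 and 0.54 in sub-polysomal and polysomal RNA.

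ERP2 read 137 with DTT and 84.7 in control sub-polysomal RNA, and 188 with DTT and 105 in control polysomal RNA. Its log2 differences were 0.60 and 0.81, with the polysomal one at place 261 from the top. ERV25, whose protein pairs with Emp24, read 1039.6 with DTT and 1001 in control sub-polysomal RNA, and 1081 with DTT and 1113 in control polysomal RNA. Its log2 differences were -0.05 and -0.07, with signs that turned positive under other scalings, and lay above the all-gene medians of -0.20 and -0.10. The 4 readings of ERV25 are thus nearly equal, where those of EMP24, ERP1 and ERP2 are higher on both DTT arrays than on either control array. After centring this held for ERP1 and ERP2 but not for EMP24 (3.43 in DTT sub-polysomal and 3.66 in control polysomal RNA). The difference of EMP24 exceeded that of ERV25 by 0.75 in sub-polysomal RNA and by 0.23 in polysomal RNA, while ERP1 minus ERP2 was -0.08 and -0.27. None of the 4 reached 2-fold in either fraction.

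The remaining p24 genes were dimmer and did not share a direction. ERP4 read 26.1 with DTT and 59.1 in control sub-polysomal RNA, and 37.3 with DTT and 66.4 in control polysomal RNA. Both DTT readings lie below both control readings. Its log2 differences were -1.28 (2.43-fold lower) and -0.86 (1.82-fold lower), which made it the only receptor gene at least 2-fold lower in sub-polysomal RNA, against 11.1% of all genes. No receptor gene was 2-fold lower in polysomal RNA or in both fractions, where 7.04% and 4.61% of all genes were. The DTT sub-polysomal reading of ERP4 was 1.15 times the floor, and with 16 added to every intensity the difference was -0.92, no longer past 2-fold.

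ERP3 read 18.7 with DTT and 17.1 in control sub-polysomal RNA, under the floor on both arrays, and 22.5 with DTT and 31.1 in control polysomal RNA, above it. No fold is given for ERP3. The last p24 genes, ERP5 and ERP6, are not among the 10. ERP5 had differences of 0.01 and 0.19 in sub-polysomal and polysomal RNA, and ERP6 had 0.38 in each.

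The Erv receptor genes other than ERV29 differed by less than 0.60 on the log2 scale. ERV46 read 317 with DTT and 357 in control sub-polysomal RNA, and 335.5 with DTT and 438 in control polysomal RNA, a log2 difference of -0.27 and -0.42. Both DTT intensities of ERV46 lie below both control intensities. After centring they do not, at 1.89 in DTT polysomal and 1.84 in control sub-polysomal RNA. The log2 differences of ERV46 were about the size of the probe set SD or less. Its partner gene ERV41 read 271 with DTT and 282 in control sub-polysomal RNA, and 296 with DTT and 286.5 in control polysomal RNA. The differences of ERV41 were -0.16 and 0.02, either of which changed sign with the processing, so the partners were 0.11 and 0.43 apart. ERV14 read 98.7 with DTT and 137 in control sub-polysomal RNA, and 118 with DTT and 106 in control polysomal RNA. Its differences were -0.58 and 0.13, with the control sub-polysomal reading the highest of the 4, and each kept its sign under every alternative. ERV15, which encodes a protein related to Erv14, had differences of -0.07 and 0.16.

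**Figure D2:**
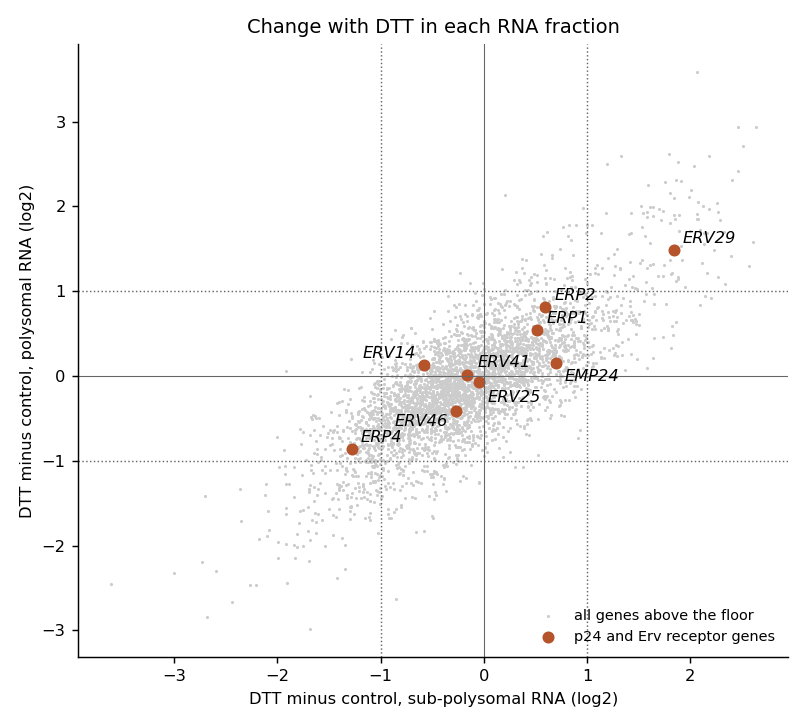
Log2 difference DTT minus control in sub-polysomal RNA (x axis) against polysomal RNA (y axis) for 3923 genes (grey) and the 9 measured receptor genes (orange), with dotted lines at 2-fold. ERV29 lies in the upper right corner beyond both lines, ERP4 on the lower left beyond the sub-polysomal line, and the other 7 within 2-fold on both axes.

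Over the 9 measured genes the median difference was -0.05 in sub-polysomal RNA and 0.13 in polysomal RNA, against -0.20 and -0.10 for all genes. In sub-polysomal RNA 6 of 9 lay above the all-gene median, and in polysomal RNA 7 of 9 did. The genes of the main p24 complex had higher medians, 0.56 and 0.35, than the 4 Erv receptor genes, -0.22 and 0.07. The spread was wide: from -1.28 (ERP4) to 1.84 (ERV29) in sub-polysomal RNA and from -0.86 to 1.48, between the same genes, in polysomal RNA.

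Other genes of the same transport step were read from lists. Among 7 measured cargo receptors and packaging chaperones, which help single membrane proteins out of the ER, the medians were 0.26 and 0.16 in sub-polysomal and polysomal RNA, with 2 and 1 genes 2-fold higher and 0 lower. CHS7, needed for export of the chitin synthase Chs3, read 312.5 with DTT and 102 in control sub-polysomal RNA, and 301 with DTT and 117 in control polysomal RNA, log2 differences of 1.52 and 1.33. EMP47, a lectin-like receptor gene, had 1.08 and 0.55, and SVP26, a receptor gene for Golgi mannosyltransferases, 0.74 and 0.22. Below 0 were 3 of the 7 in each fraction, among them GSF2 (-0.50 and -0.24) and PHO86 (-0.24 and -0.62). For 6 other vesicle membrane proteins the medians were 0.09 in sub-polysomal and -0.33 in polysomal RNA, with 2 and 5 genes below 0. Only YIP3 of these was 2-fold higher (1.89 and 1.71). Its 2 probe sets differed in size (2.65 and 1.13 in sub-polysomal RNA, 2.42 and 1.01 in polysomal RNA), and neither is of the plain kind made for a single transcript.

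The coats had medians above those of the 9 measured receptor genes, which were -0.05 in sub-polysomal and 0.13 in polysomal RNA. For 10 genes of the COPII coat and its assembly the medians were 0.26 in sub-polysomal RNA and 0.61 in polysomal RNA. The sub-polysomal COPII median was below that of the main p24 complex (0.56). In each fraction 2 COPII genes were 2-fold higher. SFB3, a cargo adaptor of that coat, was 2-fold higher in both (1.59 and 1.93). For 13 COPI and retrieval genes the medians were 0.94 and 0.50, and past 2-fold there were 3 higher genes and 1 lower gene in the sub-polysomal and 0 in the polysomal fraction. ERD2, the receptor gene for ER proteins with a retrieval tail, had 0.97 and 0.76, and RER1, a retrieval receptor gene for membrane proteins, -0.41 and 0.27. The 5 genes that remodel GPI anchors before export had medians of 0.34 and 0.33, with the lipid remodelling gene PER1 at 1.20 and 0.54.

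Transcripts of proteins that these receptors carry did not all go with their receptor. PRC1, for carboxypeptidase Y, and PEP4, for a vacuolar protease, both carried by Erv29, had -0.32 and -0.14, and 0.18 and 0.09, in sub-polysomal and polysomal RNA. ERV29 exceeded PRC1 by 2.16 and 1.62 on the log2 scale. FPR2, a prolyl isomerase gene whose product Erv41 and Erv46 return, had 2.29 and 1.84, and CWH41, for glucosidase I, 1.13 and 0.29, against -0.27 and -0.42 for ERV46. The control sub-polysomal reading of CWH41 was 35.1, or 1.24 times the floor, and its polysomal difference was smaller than the probe set SD. Of the p24 clients, GAS1 had -0.86 and -0.36, and SUC2, for secreted invertase, 0.25 and 0.33. SUC2 was measured by 1 of its 3 probe sets, which read 29.5 in control sub-polysomal RNA against a floor of 28.2. The medians of the 6 measured clients were 0.22 and 0.19. AXL2 was not measured by the rule above, since each of its 3 probe sets was under the floor in control sub-polysomal RNA. They read 85.9, 29.1 and 19.4 with DTT and 25.4, 16.4 and 13.8 in control sub-polysomal RNA. In polysomal RNA they read 78.9, 30.4 and 33 with DTT and 37.6, 42.5 and 23.6 in control cells. The known unfolded protein response genes KAR2 and ERO1 had 0.92 and 0.76, and 1.19 and 2.50.

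**Figure D3:**
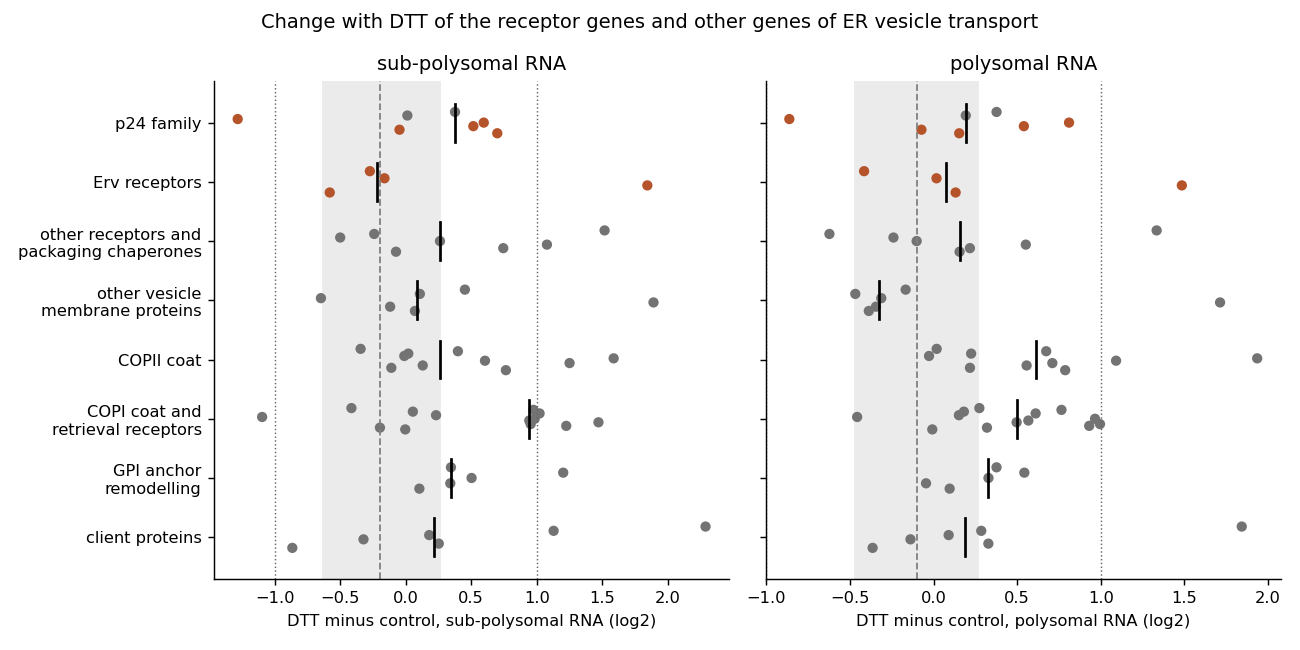
Log2 difference DTT minus control in sub-polysomal (left) and polysomal RNA (right) for the measured genes of 8 lists, with the 9 receptor genes in orange, the median of each list as a black bar, the all-gene median as a dashed line and the interquartile range of all genes in grey. ERV29, CHS7, YIP3, SFB3 and FPR2 lie beyond 2-fold (dotted) in both panels.

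Polysomal over sub-polysomal ratios ask how ribosome-loaded a transcript is relative to the median probe set. As scaled here, all 9 measured genes had ratios above 0 in DTT-treated cells, which under quantile and loess normalization held for 5 and 4 of them, with a median of 0.39 and a range from 0.30 (ERP1) to 1.29 (ERV29), against an all-gene median of 0.08 and 54.5% of all genes above 0. In control cells 8 of 9 were above 0 (5 under quantile normalization and 5 under loess), with a median of 0.34 and a range from -0.21 (ERV14) to 1.65 (ERV29), against a median of -0.03 and 48.5% above 0 for all genes. ERV29 had the highest ratio of the 9 in both treatments, at place 38 from the top of 3923 genes in DTT-treated and 36 in control cells. Its control ratio uses the sub-polysomal reading at 1.28 times the floor, and was 1.31 with 16 added to every intensity. ERV29 was the only one at least 2-fold higher in polysomal RNA, where 4.79% of all genes were in DTT-treated and 7.11% in control cells. None was 2-fold lower, against 3.8% and 6.5%. EMP24 came next in control cells (0.93), and ERP4 (0.76) and ERP2 (0.70) in DTT-treated cells. The ratio of ERP4 with DTT uses a sub-polysomal reading at 1.15 times the floor. With 16 added to every intensity it was 0.55, and that of ERP2 was 0.62.

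**Figure D4:**
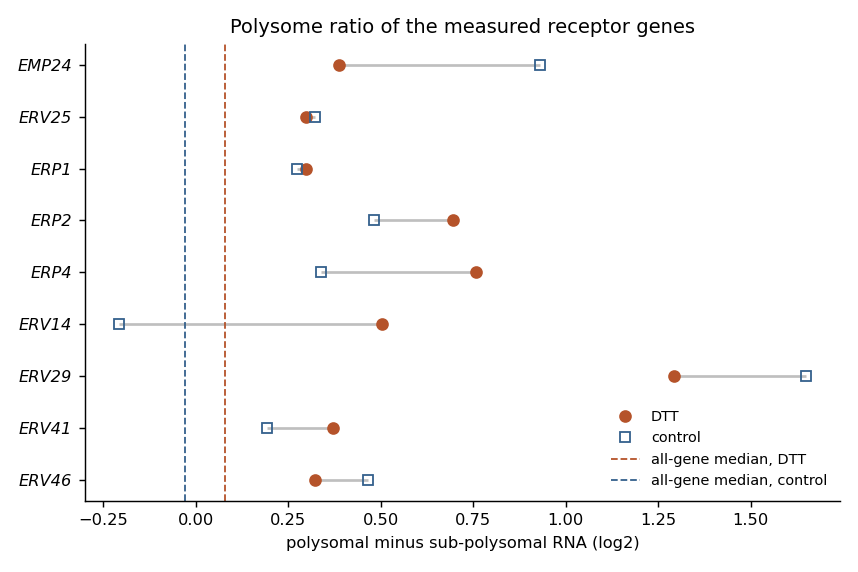
Log2 polysomal minus sub-polysomal values, centred on each array's median, of the 9 measured receptor genes in DTT-treated (orange circles) and control cells (open blue squares), with the all-gene medians as dashed lines. With this scaling the orange circles lie right of the all-gene median, ERV29 farthest right in both treatments, and ERV14 and EMP24 have the longest connecting lines.

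Brightness moved with these ratios. With all genes divided by mean intensity into 4 classes of equal size, a division made after the values were seen, the median ratio of the classes was -0.17, -0.03, 0.09 and 0.41 in DTT-treated cells, from dim to bright, and -0.35, -0.08, 0.06 and 0.35 in control cells. The brightest class held EMP24, ERV25, ERP1, ERV41 and ERV46, the next held ERP2, ERV14 and ERV29, and the dimmest ERP4. Against the median of their own class, 4 of 9 genes lay above in DTT-treated and 5 of 9 in control cells. Under loess normalization, which removes a trend with brightness, the median of the 9 was -0.01 in DTT-treated and 0.05 in control cells. The 5 genes of the brightest class then lay between -0.15 and -0.01 in DTT-treated cells, while ERV29 stood at 1.21.

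**Figure D5:**
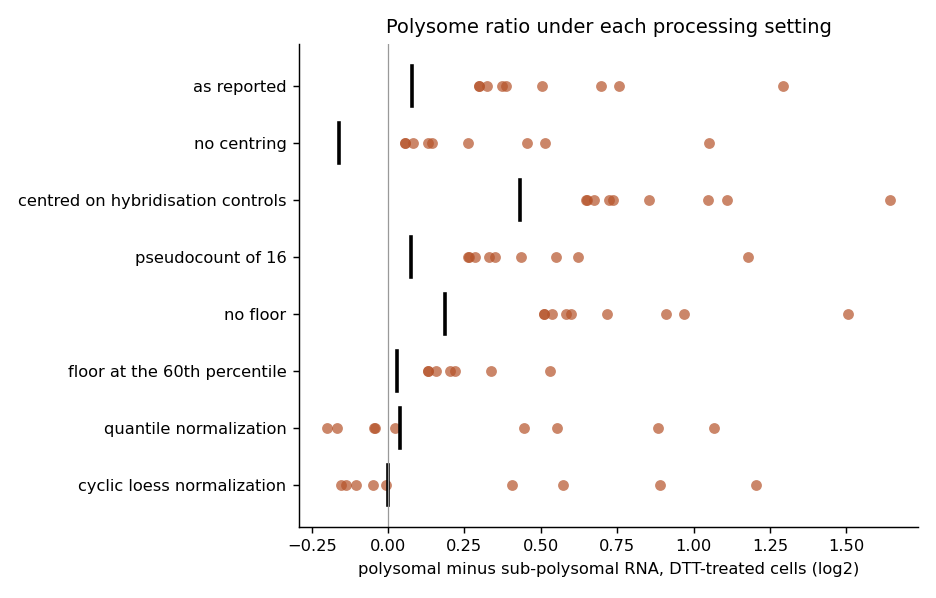
Polysomal minus sub-polysomal values (log2) with DTT for the measured receptor genes (orange points) under 8 processing settings (rows), with the all-gene median of each setting as a black bar. ERV29 is the rightmost point wherever it passed the floor, and under quantile and loess normalization the bright genes lie around 0.

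The difference of these ratios, DTT-treated minus control cells, is the change in polysome association. It was within 2-fold for all 9 genes, against 1.99% of all genes 2-fold higher and 1.45% lower. The median was 0.02, with 0.08 for all genes, and 7 of 9 lay closer to 0 than the probe set SD of 0.43, as did 2512 of all 3923 genes. ERV14 was the highest at 0.71, from a ratio of 0.50 in DTT-treated and -0.21 in control cells, at place 319 from the top. EMP24 was the lowest at -0.54, from 0.39 in DTT-treated and 0.93 in control cells, at place 402 from the bottom. ERV29 stood at -0.36, a value that was -0.88 under quantile normalization and -0.13 with 16 added to every intensity. ERV25 (-0.03) and ERP1 (0.02) were nearest to 0. These values use all 4 arrays, the control sub-polysomal one among them, and they share arrays with the differences given above.

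The receptor genes had no common profile over the arrays. Among 3131 genes brighter than the median on all arrays, the profiles nearest to the median profile of the 9, by Euclidean distance over 4 arrays after each gene's mean was removed, were those of the kinase gene SNF1 (0.04), YPR147C (0.06), the translation elongation gene EFB1 (0.06), the oligosaccharyltransferase gene SWP1 (0.08) and the polyphosphatase gene PPN1 (0.08). The receptor genes were left out of the 3131, and they make up the median profile, so their own distances to it are not independent of it. Of the receptor genes ERV25 (0.067) lay as near as these, and ERV41 (0.084) just beyond the fifth of them (0.080). The other receptor genes were 0.36 (ERV46) to 2.06 (ERV29) away.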

How the data were processed

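Per the labels, RNA of 4 groups (1 array each, 3 extracts pooled) was hybridised to Affymetrix yeast arrays; the run sheets name the chip type and list a different wash module for every array, so effects of the run and of the group cannot be told apart. The authors deposited linear intensities for each probe set, scaled so that the mean after trimming 2% from each end is about 100.1 on every array. How probes were summarised is not stated in the labels or headers. There are 9335 probe sets. Gene values used the 6504 that name 1 gene, and symbols were updated through the R64 gene list, which served for names and gene order. All 4 columns belong to a sample. Intensities above the 40th percentile of all 4 arrays were taken to log2 and centred on the median of 4720 measured probe sets. Controls were left out of these 4720, but probe sets that name several genes or none were not. Probe sets of a gene were then averaged. Polysomal and sub-polysomal RNA were labelled separately, so ratios are relative to that median.

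Genes were counted past 2-fold and no p-value was computed, since each group has 1 array. The number of arrays limits the precision of every value. The members and lists were chosen with earlier results of these data known. All 10 members are named; other genes are named when a list gene was 2-fold changed in both fractions in the same direction, or had one of the 5 nearest profiles. Further list genes, the brightness classes and adjacent genes were chosen after their values were seen. The calculation was tested on simulated data, with known folds put into bright genes of 1 probe set, the same on both DTT arrays. That test did not cover readings near the floor or a change in polysome association. Tools were Python 3.11.15, NumPy 2.4.6, pandas 2.3.3 and limma 3.58.1 (loess). Alternatives were no centring, quantile and cyclic loess normalization, centring on 9 hybridisation controls, no floor, a floor at the 60th percentile, a pseudocount of 16 and a 3-fold limit. No sequence was analysed here, so the planned motif, protein and length comparisons were not made.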

Additional observations from a re-analysis of the deposited data

Results flagged for a closer look

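ERV14 and ERV41 had opposite signs of DTT minus control in the 2 fractions. For ERV14 the log2 difference was 0.13 in polysomal and -0.58 in sub-polysomal RNA, 0.71 apart, and the gap stayed between 0.59 and 0.88 under the 7 alternatives that change its value. For ERV41 it was 0.02 in polysomal and -0.16 in sub-polysomal RNA, 0.18 apart, which is less than the probe set SD of 0.43. With 1 array per group neither gap was tested.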

How the results depend on the processing

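No paired analysis was possible because each group has 1 array and no result comes from a test. No single receptor value past 2-fold changed sign under any alternative, and 281 of 305 single values moved by less than the probe set SD. The median polysomal to sub-polysomal ratio in DTT-treated cells was 0.39, and became 0.74 when centred on hybridisation controls, 0.023 under quantile and -0.0062 under loess normalization; the other medians moved by less than the SD. Counts of receptor genes past 2-fold are small and changed easily. With a floor at the 60th percentile ERV29 and ERP4 were left out by construction, and the counts were 0 in both fractions and 0 for both ratios. At a 3-fold limit the count was 1 in sub-polysomal RNA (1 higher, 0 lower), 0 in polysomal RNA and 0 for the ratio in DTT-treated cells. The share of all genes past 3-fold is not given here. Centred on hybridisation controls, 2 were higher in polysomal RNA, and 3 and 2 had higher ratios in DTT-treated and control cells. Under loess 2 were higher in sub-polysomal RNA. With no floor all 10 genes were counted, and 3 had higher ratios in control cells. These were ERV29 (1.98), EMP24 (1.26) and ERP3, which lay under the floor on both sub-polysomal arrays. With a pseudocount of 16 the sub-polysomal count was 1, with 0 lower, against 4.46% of all genes higher and 6.65% lower. ERV29 kept differences of 1.48 to 2.13 in sub-polysomal and 1.25 to 1.73 in polysomal RNA wherever it passed the floor. The signs of ERV25 and ERV41 in both fractions depended on the scaling or the floor. Dim readings near the floor, those of ERP3, ERP4 and ERV29 in 1 or more sub-polysomal samples, limit what can be said of these genes. The median DTT minus control over all genes was -0.20 (sub-polysomal) and -0.10 (polysomal); it was -0.06 and -0.03 under loess, and -0.13 and 0.14 when centred on hybridisation controls. Counts of higher and lower genes moved with it: 223 and 437 in sub-polysomal RNA (283 and 274 under loess, 271 and 304 without centring, 634 and 561 with no floor), 170 and 276 in polysomal RNA (292 and 164 on hybridisation controls, 439 and 536 with no floor), 188 and 149 for the ratio with DTT (57 and 336 without centring, 624 and 41 on hybridisation controls, 94 and 171 under loess, 513 and 366 with no floor), 279 and 255 for the control ratio (179 and 417, 444 and 147, 177 and 242, 909 and 464 in that order) and 78 and 57 for the change in polysome association (54 and 93, 185 and 30, 43 and 83, 333 and 404).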

Other observations

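The genes next to the receptor genes on their chromosomes were found from the gene order of assembly R64, and those named here were picked after their values were seen. Of 20 adjacent genes 17 were measured, with median differences DTT minus control of -0.08 in sub-polysomal and -0.09 in polysomal RNA, where the receptor genes had -0.05 and 0.13. The genes beside ERV29 are UPA1 (0.15 in sub-polysomal and -0.55 in polysomal RNA) and ZUO1, for a ribosome-bound chaperone (0.31 and 0.06), against 1.84 and 1.48 for ERV29 itself. Beside ERV14 lies PRM8, for a membrane protein of the pheromone response, at 1.52 and 2.01, the only adjacent gene at least 2-fold higher in either fraction. ERV14 itself stood at -0.58 and 0.13. Beside ERP2 lies SSA1, a cytosolic Hsp70 gene, at -1.31 and -0.73, where ERP2 was at 0.60 and 0.81. YIP4, itself a gene for a vesicle membrane protein, lies beside EMP24 and had 0.11 and -0.47.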
